A study of Mus musculus with 10 samples.

Results

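The genes described here are 10 hypoxia-responsive and glycolysis genes, chosen by their symbols: *Slc2a1*, *Slc2a3*, *Hk2*, *Pfkp*, *Aldoa*, *Pgk1*, *Ldha*, *Pdk1*, *Vegfa* and *Bnip3*. They are 10 of the 21937 genes in the deposited expression table, and all 10 are described in each of its 10 libraries. RNA came from C57BL/6 mouse embryonic stem (ES) cells that had been left to differentiate, with a single library per condition at each time. In the SFEB culture, in which ES cells grow as floating aggregates without serum and turn towards neuroectoderm, the conditions were Tet3 knockout cells given Dkk, Tet3 knockout cells and wild-type cells, each on days 10 and 6. In a second culture, which contained fetal bovine serum (FBS) and does not favour neural fates, Tet3-overexpressing cells and control cells were taken on days 7 and 4. Tet3 belongs to the dioxygenases that oxidise methylated DNA bases, and Dkk is a secreted Wnt antagonist. The knockout cells were derived from mice with floxed *Tet3* alleles, and the floxed exon was then removed by transient expression of Cre recombinase. No source used here gives the Dkk form and dose, the way Tet3 was overexpressed or the oxygen level of the cultures, and no condition is labelled as hypoxic.

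Levels are in RPKM, read counts divided by gene length and by library size, and ratios are differences of log2(RPKM + 0.5), which understate the change of low genes. The estimated depth was 10200000 to 44000000 reads per library, and every one of the 10 genes reached 1 RPKM in at least 1 library of both cultures. The lowest estimate behind a level was 30 reads. With 1 library per condition and day no single ratio could be tested, so a ratio of 2-fold or more is given as a description, and the 95% Clopper-Pearson intervals of estimated reads cover counting error only. These intervals, and values written as a fold, leave out the 0.5, so an interval is not centred on its log2 ratio. The 2-fold limit was applied with the 0.5. The targeted gene *Tet3* was at 14.1 RPKM in Tet3-overexpressing and 5.87 RPKM in control cells on day 7, and at 12.52 RPKM in Tet3-overexpressing and 0.96 RPKM in control cells on day 4. In the SFEB culture *Tet3* was at 13.1 RPKM in Dkk-treated knockout, 14.3 RPKM in knockout and 10.22 RPKM in wild-type cells on day 10, and at 7.64 RPKM in Dkk-treated knockout, 6.59 RPKM in knockout and 8.11 RPKM in wild-type cells on day 6. A level over the whole gene does not resolve the removed exon, so it is no check of the knockout. Of 6 pluripotency markers, the summed level was 11.8 to 75.4 RPKM in the SFEB libraries and 311 to 1918 RPKM in the FBS libraries, although every sample is labelled as embryonic stem cells. In bulk RNA, fewer cells of a type and less RNA per cell cannot be told apart.

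Cells take up glucose through transporters such as GLUT1 (*Slc2a1*) and GLUT3 (*Slc2a3*) and break it down to pyruvate by glycolysis, after which pyruvate either enters the mitochondria or is reduced to lactate. When oxygen is low, the hypoxia-inducible factors HIF-1 and HIF-2 bind short DNA elements near their target genes and raise transporters, glycolytic enzymes, the pyruvate dehydrogenase kinase *Pdk1*, the vascular growth factor *Vegfa* and the mitophagy receptor *Bnip3*. Pluripotent cells are known for high glycolysis even in air, and neuronal differentiation is known to lower hexokinase 2 and lactate dehydrogenase A.

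The promoter sequences are shown because these genes are grouped by a shared regulator whose core element, the hypoxia response element, can be read directly from the letters. RefSeq windows of 250 bases before to 50 bases after a start site were found for 9 of the 10 genes by symbol, in 14 windows on the build GRCm38.p6. *Slc2a3* is named only. Both strands were searched for the letters ACGTG and GCGTG, the 2 common forms of the HIF core, and capitals mark each match or its reverse complement, CACGT or CACGC. A palindrome CACGTG holds a match on each strand and counts as 2 matches. The 4 windows below were chosen by role and by the results that follow: *Slc2a1* and *Bnip3* had the largest differences between days, in opposite directions, and *Pgk1* and *Ldha* are abundant glycolytic enzymes that were higher in the knockout arms.
Slc2a1 (chr4:119108495-119108794, plus strand): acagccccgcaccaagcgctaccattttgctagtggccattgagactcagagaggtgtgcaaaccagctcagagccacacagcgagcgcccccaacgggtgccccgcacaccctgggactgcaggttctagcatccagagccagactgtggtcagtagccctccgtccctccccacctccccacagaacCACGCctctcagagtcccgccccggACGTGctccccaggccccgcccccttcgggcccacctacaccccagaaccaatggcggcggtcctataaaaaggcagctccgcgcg
Pgk1 (chrX:106186850-106187149, plus strand): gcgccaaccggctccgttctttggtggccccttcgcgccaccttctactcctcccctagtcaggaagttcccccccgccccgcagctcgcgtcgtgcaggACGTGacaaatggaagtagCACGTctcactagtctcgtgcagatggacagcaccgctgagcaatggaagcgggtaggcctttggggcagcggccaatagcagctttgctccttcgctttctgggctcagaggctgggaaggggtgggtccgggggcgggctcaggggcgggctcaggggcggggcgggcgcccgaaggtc
Ldha (chr7:46845554-46845853, plus strand): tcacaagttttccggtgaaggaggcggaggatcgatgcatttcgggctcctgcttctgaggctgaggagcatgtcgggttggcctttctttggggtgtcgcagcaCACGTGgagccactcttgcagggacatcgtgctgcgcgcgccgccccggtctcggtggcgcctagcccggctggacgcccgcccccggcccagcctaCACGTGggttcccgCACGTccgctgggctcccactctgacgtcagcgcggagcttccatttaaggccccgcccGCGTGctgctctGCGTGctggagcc
Bnip3 (chr7:138909457-138909756, minus strand): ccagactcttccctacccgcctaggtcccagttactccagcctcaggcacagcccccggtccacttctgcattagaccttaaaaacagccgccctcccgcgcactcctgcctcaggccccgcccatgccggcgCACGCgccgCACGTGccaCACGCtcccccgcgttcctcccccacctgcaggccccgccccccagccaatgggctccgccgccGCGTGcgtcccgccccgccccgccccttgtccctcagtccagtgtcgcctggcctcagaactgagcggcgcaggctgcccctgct
The *Ldha* window held 5 matches to ACGTG, 4 of them in 2 palindromes, and 2 to GCGTG. In the *Bnip3* window there were 2 matches to ACGTG, both in 1 palindrome, and 3 to GCGTG. The *Pgk1* window held 2 matches to ACGTG and that of *Slc2a1* held 1 of each form. ACGTG was present in 7 of the 9 genes, against 29.1% of 9623 genes that reached 1 RPKM and had a window. GCGTG was present in 6 of 9, against 56.1% of those genes, and at least 1 of the 2 forms in 9 of 9, against 67.6%. *Vegfa* and *Pdk1* each counted through 1 window only, since their other window held 0 matches of either form. On the minus strand the matched *Vegfa* window (chr17:46025114-46025413) lies downstream of its other window (chr17:46032328-46032627). Counted by window, ACGTG was present in 8 of the 14, GCGTG in 7 and either form in 11. Overlapping *Aldoa* windows hold the same CACGT site, so by window it counts more than once. Across all 32851 windows the shares were 19.6% for ACGTG, 32.4% for GCGTG and 43.8% for either. Genes with several windows have more chances to hold a match, and a match is a description of the letters, not of binding.

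The 10 genes were spread over a wide range of levels, and most were lower in the neural culture than in the serum culture. For 6 of the 10, *Slc2a3*, *Pfkp*, *Aldoa*, *Pgk1*, *Ldha* and *Pdk1*, all 6 SFEB libraries lay below all 4 FBS libraries, a pattern that 12.2% of 13757 genes showed. The opposite pattern was seen for 0 of the 10 and for 20% of those genes. *Pfkp*, the platelet form of phosphofructokinase, had the largest gap, with a median of 1.48 RPKM over the SFEB libraries and 21.2 RPKM over the FBS libraries. The medians of *Aldoa*, which encodes aldolase A, were 330.3 RPKM in SFEB and 1171 RPKM in FBS libraries, and those of *Pgk1*, phosphoglycerate kinase, were 528 RPKM in SFEB and 1096 RPKM in FBS libraries. *Vegfa* was the exception to the general order, with a median of 8.51 RPKM in SFEB and 8.0 RPKM in FBS libraries. Ranges overlapped between the cultures for *Slc2a1*, *Hk2*, *Vegfa* and *Bnip3*. The cultures also differ in cell lines and in sampling days, and these cannot be told apart, so no test is given. The summed pluripotency markers separated the cultures in the same way, and their part in the lower levels was not tested.

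**Figure D1:**
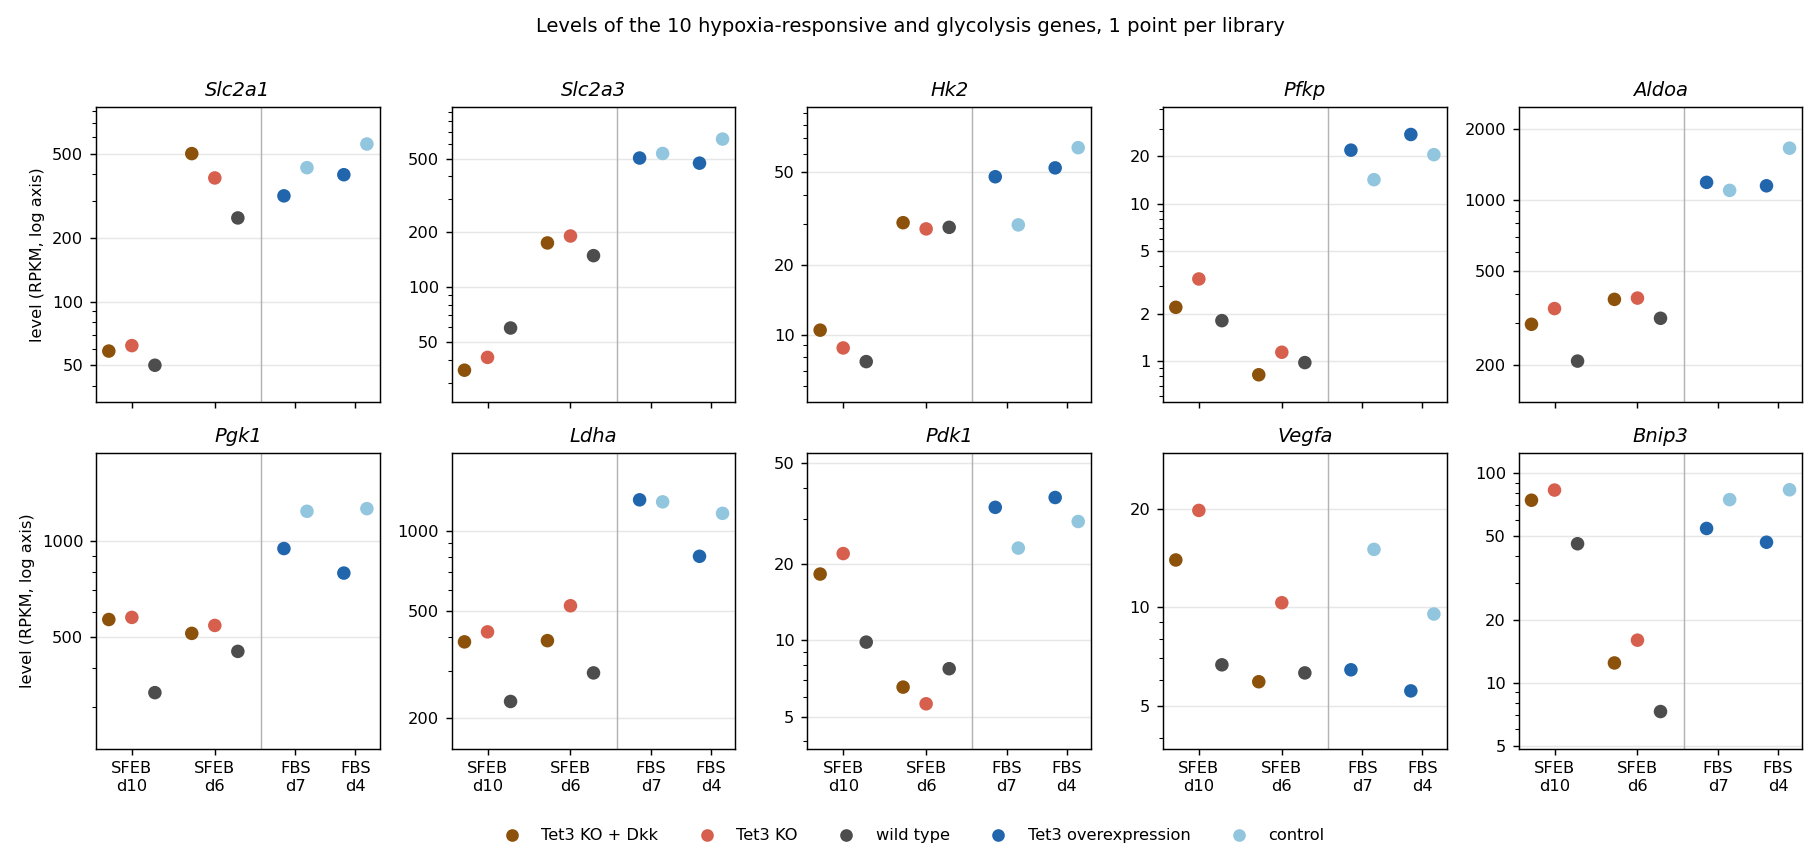
Level of each gene in RPKM (log axis, 1 panel per gene) in each of the 10 libraries, 1 point per library, with the SFEB days left of the vertical line and the FBS days right of it. In 6 panels every SFEB point lies below every FBS point, *Slc2a1*, *Slc2a3* and *Hk2* drop between SFEB day 6 and day 10, and *Bnip3* does the reverse.

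Between the days of the SFEB culture some of the 10 genes were lower and others higher on day 10. In an additive limma model over all 10 libraries, with arm and day within culture as terms, 7 of the 10 genes passed an adjusted p of 0.05 for day 10 against day 6, where 46.3% of 13757 genes passed. *Slc2a1*, *Slc2a3* and *Hk2* were lower on day 10, *Bnip3*, *Pdk1*, *Pfkp* and *Vegfa* were higher, and *Aldoa*, *Pgk1* and *Ldha* did not pass. The model has 3 residual degrees of freedom among samples, and what it takes for error is the part of an arm's change that differs between days, since days are not replicates.

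Glucose uptake genes were the ones that dropped furthest. *Slc2a1*, the ubiquitous glucose transporter GLUT1, was at 58.5 RPKM in Dkk-treated knockout, 62.0 RPKM in knockout and 50.1 RPKM in wild-type cells on day 10. On day 6 it was at 502 RPKM in Dkk-treated knockout, 385 RPKM in knockout and 249 RPKM in wild-type cells. The 3 day 10 libraries all lay far below the 3 day 6 libraries, and the model gave a difference of -2.67 on the log2 scale (SE 0.154, limma adjusted p = 0.00018). *Slc2a3*, the glucose transporter GLUT3, often called the neuronal form, was at 35.1 RPKM in Dkk-treated knockout, 41.2 RPKM in knockout and 59.6 RPKM in wild-type cells on day 10. Its day 6 levels were 173 RPKM in Dkk-treated knockout, 189 RPKM in knockout and 148 RPKM in wild-type cells. The days again did not overlap, with a difference of -1.93 (SE 0.20, limma adjusted p = 0.000696). *Slc2a3* was therefore lower on the day when the 6 neuron markers summed to 1394 to 1713 RPKM than on the day when they summed to 79.2 to 173 RPKM. Its highest levels, 472 to 639 RPKM, were in the FBS libraries, so it did not follow the neuron markers here. The part of the changed cell mixture in these levels was not tested.

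Hexokinase 2 (*Hk2*), which phosphorylates glucose in its first intracellular step, followed the transporters. On day 10 *Hk2* was at 10.4 RPKM in Dkk-treated knockout, 8.76 RPKM in knockout and 7.65 RPKM in wild-type cells, and on day 6 it was at 30.3 RPKM in Dkk-treated knockout, 28.5 RPKM in knockout and 29.0 RPKM in wild-type cells. The 3 day 6 libraries were close to each other and all above the day 10 libraries, with a difference of -1.67 (SE 0.19, limma adjusted p = 0.000929). *Pfkp*, a phosphofructokinase that commits sugar to glycolysis, moved the other way at low levels. It was at 2.2 RPKM in Dkk-treated knockout, 3.33 RPKM in knockout and 1.81 RPKM in wild-type cells on day 10, and at 0.82 RPKM in Dkk-treated knockout, 1.14 RPKM in knockout and 0.98 RPKM in wild-type cells on day 6. The days did not overlap, and the difference was 0.97 (SE 0.18, limma adjusted p = 0.00535).

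The abundant enzymes further down the pathway stayed abundant on both days. *Aldoa*, which splits fructose bisphosphate, was at 297 RPKM in Dkk-treated knockout, 346 RPKM in knockout and 207 RPKM in wild-type cells on day 10, and at 379 RPKM in Dkk-treated knockout, 383 RPKM in knockout and 315 RPKM in wild-type cells on day 6. *Pgk1*, which makes the first ATP of glycolysis, was at 567 RPKM in Dkk-treated knockout, 576 RPKM in knockout and 333 RPKM in wild-type cells on day 10. On day 6 *Pgk1* was at 512 RPKM in Dkk-treated knockout, 543 RPKM in knockout and 449.8 RPKM in wild-type cells. For both genes the ranges of the days overlapped, and wild-type cells on day 10 had the lowest level of all 10 libraries. *Ldha*, which reduces pyruvate to lactate, was at 385 RPKM in Dkk-treated knockout, 419 RPKM in knockout and 230.1 RPKM in wild-type cells on day 10, and at 389 RPKM in Dkk-treated knockout, 525 RPKM in knockout and 294 RPKM in wild-type cells on day 6. *Ldha* overlapped between days as well, and its 2 wild-type levels were below its 4 knockout levels. The model differences between days were -0.37 for *Aldoa*, -0.07 for *Pgk1* and -0.23 for *Ldha*, with limma adjusted p of 0.101 for *Aldoa*, 0.749 for *Pgk1* and 0.236 for *Ldha*.

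The genes outside glycolysis proper were higher on day 10 in both knockout arms. *Pdk1*, a kinase that shuts pyruvate dehydrogenase and so keeps pyruvate out of the mitochondria, was at 18.3 RPKM in Dkk-treated knockout, 22.0 RPKM in knockout and 9.85 RPKM in wild-type cells on day 10. On day 6 *Pdk1* was at 6.55 RPKM in Dkk-treated knockout, 5.63 RPKM in knockout and 7.74 RPKM in wild-type cells. All day 10 libraries were above all day 6 libraries, but the gap was small in wild-type cells, and the model gave 1.21 (SE 0.27, limma adjusted p = 0.0111). Without the Dkk-treated knockout arm the adjusted p of *Pdk1* was 0.0738 and without the knockout arm 0.0630, alternatives chosen after seeing the data. *Vegfa*, the ligand that drives vessel growth, was at 13.97 RPKM in Dkk-treated knockout, 19.8 RPKM in knockout and 6.68 RPKM in wild-type cells on day 10, and at 5.93 RPKM in Dkk-treated knockout, 10.3 RPKM in knockout and 6.31 RPKM in wild-type cells on day 6. The *Vegfa* ranges overlapped, because knockout cells on day 6 lay above wild-type cells on day 10. Within wild-type cells *Vegfa* was only 1.06-fold higher on day 10 (counting interval on the log2 scale -0.39 to 0.54). Its model difference was 0.72 (SE 0.23, limma adjusted p = 0.0396), and the call was lost without the Dkk-treated knockout arm (adjusted p = 0.222), without the knockout arm (adjusted p = 0.178), with no filter on low values (adjusted p = 0.0750) and with no trend in the variance (adjusted p = 0.0578).

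*Bnip3*, which marks mitochondria for removal by autophagy, rose most. It was at 74.1 RPKM in Dkk-treated knockout, 82.9 RPKM in knockout and 46.0 RPKM in wild-type cells on day 10, and at 12.4 RPKM in Dkk-treated knockout, 16.0 RPKM in knockout and 7.30 RPKM in wild-type cells on day 6. Every day 10 library was above every day 6 library, with a difference of 2.48 (SE 0.116, limma adjusted p = 0.000126). Within single arms the ratio was 5.96-fold in Dkk-treated knockout, 5.19-fold in knockout and 6.30-fold in wild-type cells, so the 3 arms gave nearly the same change. Of 11 compared genes of the BNIP3 family and mitophagy, 5 were 2-fold higher on day 10 in Dkk-treated knockout cells (17.6% of all genes). In knockout cells 4 were (21.1%) and in wild-type cells 4 (16.9%). Lower genes numbered 0 in each arm, where 6.82% of all genes were lower in Dkk-treated knockout, 8.01% in knockout and 7.98% in wild-type cells. The median of that list was 0.73 in Dkk-treated knockout cells (0.14 over all genes), 0.76 in knockout cells (0.16) and 0.87 in wild-type cells (0.09).

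**Figure D2:**
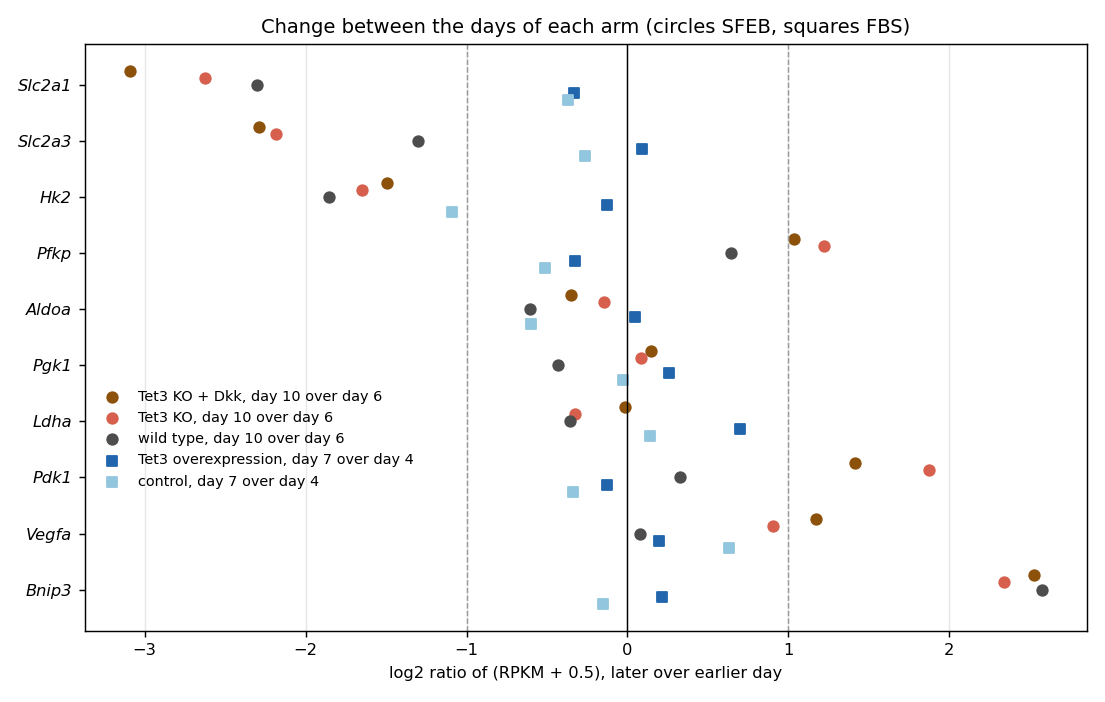
Log2 ratio of RPKM + 0.5, later over earlier day, for each gene in each arm, with circles for the SFEB arms, squares for the FBS arms and dashed lines at a 2-fold ratio. The uptake genes and *Hk2* lie below 0 and *Bnip3* lies near 2.5 in all 3 SFEB arms, whereas *Pdk1* and *Vegfa* lie farther to the right in both knockout arms than in wild-type cells.

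The 3 arms differed in how many of the 10 genes passed 2-fold between days. In Dkk-treated knockout cells 4 were higher on day 10 (background 17.6% of 12912 genes) and 3 were lower (background 6.82%). In knockout cells 3 were higher (21.1%) and 3 lower (8.01%), and in wild-type cells 1 was higher (16.9%) and 3 were lower (7.98%). The 3 that were lower were *Slc2a1*, *Slc2a3* and *Hk2* in each arm, a larger share of the 10 than of all genes. Whether the arms differ in these changes was not tested. In the FBS culture the days were closer. Tet3-overexpressing cells had 0 of the 10 genes 2-fold higher on day 7 (3.5% of 12387 genes) and 0 lower (1.2%), and control cells had 0 higher (11.5%) and 1 lower (8.73%). That gene was *Hk2*, at 29.7 RPKM on day 7 and 63.8 RPKM on day 4 in control cells. limma called 0 of the 10 genes between the FBS days (background 0.451%), with 1 gene, *Hk2*, at an unadjusted p under 0.05.

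In the comparison of Tet3 knockout with wild-type cells on day 10, which asks what loss of Tet3 changes in this differentiation, 9 of the 10 genes lay above 0, where 54.8% of 12912 genes did. *Vegfa* was 2.96-fold and *Pdk1* 2.23-fold higher in knockout cells, and they were the 2 genes past 2-fold, in a background of 8.28% of genes higher. None of the 10 was 2-fold lower, against 1.96% of genes. The median log2 ratio of the 10 was 0.76, against 0.06 over all genes. A further 5 genes were 1.67 to 1.84-fold higher, namely *Aldoa*, *Pgk1*, *Bnip3*, *Ldha* and *Pfkp*. *Slc2a3* alone was lower, by 0.53 on the log2 scale (counting interval -0.62 to -0.45), and *Hk2* at 0.18 had a counting interval from -0.02 to 0.40.

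On day 6 the knockout lay above wild type for 8 of the 10 genes, against 49.2% of all genes, with a smaller median of 0.32 against 0.00 over all genes. Only *Bnip3* passed 2-fold, at 2.19-fold higher (background 4.89%), and 0 genes were 2-fold lower (2.18%). *Ldha* was 1.78-fold, *Vegfa* 1.64-fold and *Slc2a1* 1.55-fold higher in knockout cells. *Pdk1* was at 5.63 RPKM in knockout and 7.74 RPKM in wild-type cells, a log2 ratio of -0.43 (counting interval -0.68 to -0.24), and so had the opposite sign of day 10. Over both days limma called 0 of the 10 genes between knockout and wild-type cells (background 0.211%), although 6 of the 10 had an unadjusted p under 0.05, as did 14.7% of all genes. The largest estimates were 1.09 for *Vegfa* (SE 0.28, limma adjusted p = 0.159), 0.96 for *Bnip3* (SE 0.143, limma adjusted p = 0.0697) and 0.85 for *Ldha* (SE 0.179, limma adjusted p = 0.110). In a fit on the SFEB libraries alone, with 2 residual degrees of freedom, *Bnip3* (limma adjusted p = 0.0279) and *Ldha* (limma adjusted p = 0.0483) passed, as did 1.96% of all genes. Without the Dkk-treated knockout arm 0 of the 10 passed, with a lowest limma adjusted p of 0.192 (background 0.0219%). With no trend in the variance 0 passed as well, with a lowest limma adjusted p of 0.148 (background 0.0872%).

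Markers of other cell types differed between these libraries as well. On day 10 all 6 fibroblast and matrix markers reached 1 RPKM in both genotypes, summing to 619 RPKM in knockout and 41.6 RPKM in wild-type cells. Cardiac markers reached it for 4 of 6 in knockout and 2 of 6 in wild-type cells, summing to 120.9 RPKM in knockout and 4.56 RPKM in wild-type cells, in which *Nkx2-5* was listed at 0. On day 6 primitive streak and mesoderm markers reached it for 5 of 6 in knockout and 1 of 6 in wild-type cells, summing to 248 RPKM in knockout and 4.55 RPKM in wild-type cells, in which *Msgn1* was listed at 0. Their part in the higher levels of the 10 genes was not tested. In Dkk-treated knockout cells the fibroblast markers, 6 of 6 at 1 RPKM, summed to 61.0 RPKM on day 10 and the cardiac markers, 4 of 6, to 57.3 RPKM.

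Addition of Dkk to knockout cells, which asks how far a block of Wnt signalling alters the knockout, was examined on both days. Of the 10 genes 9 were below the untreated knockout on day 10, where 50.9% of all genes were, and 7 on day 6, where 47.8% were. On day 10, 0 of the 10 exceeded the untreated knockout 2-fold (background 1.7%) and 0 fell short of it 2-fold (5.23%). On day 6 the counts were again 0 above (2.18%) and 0 below (3.58%). Their median ratio was -0.19 on day 10, against -0.01 for all genes, and -0.10 on day 6, against 0.01 for all genes. *Vegfa* was among the lowest on both days, at -0.49 (counting interval -0.72 to -0.29) on day 10 and -0.75 (-1.23 to -0.37) on day 6. *Pfkp* was at -0.50 (-0.91 to -0.28) on day 10 and -0.31 (-1.20 to 0.25) on day 6. *Slc2a1* was 1.30-fold higher in Dkk-treated than in untreated knockout cells on day 6 and 0.942-fold on day 10. Over both days limma called 0 of the 10 (background 0.131%), and 0 had an unadjusted p under 0.05 where 5.68% of all genes did. The untreated knockout libraries are the reference here and the tested side against wild type. An error in such a library moves the 2 sets of ratios in opposite directions, so these sets are not independent.

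Set against wild type, Dkk-treated knockout cells were above it for 9 of the 10 genes on day 10, where 52.5% of all genes were, and for 7 of 10 on day 6, where 52.2% were. On day 10 *Vegfa* was 2.09-fold higher and the only one of the 10 past 2-fold (background 4.6%), and 0 were 2-fold lower (1.69%). The median of the 10 was 0.60, against 0.04 over all genes. Over all genes 594 were 2-fold higher and 218 lower, and with values rescaled to a common sum 580 were higher and 415 lower. *Slc2a3* was lowest, at 0.589-fold. On day 6 *Slc2a1* was 2.01-fold higher in Dkk-treated knockout cells and the only one past 2-fold (1.59%), 0 were lower (0.984%), and the median was 0.21 against 0.02 over all genes. Both of these calls lie near the 2-fold line and were lost under another scaling of the libraries. limma called 0 of the 10 over both days (background 0.00727%), with an unadjusted p under 0.05 for 4 of the 10 and 11.8% of all genes. This comparison shares its wild-type libraries with that of the knockout, so the 2 sets of ratios are not independent.

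**Figure D3:**
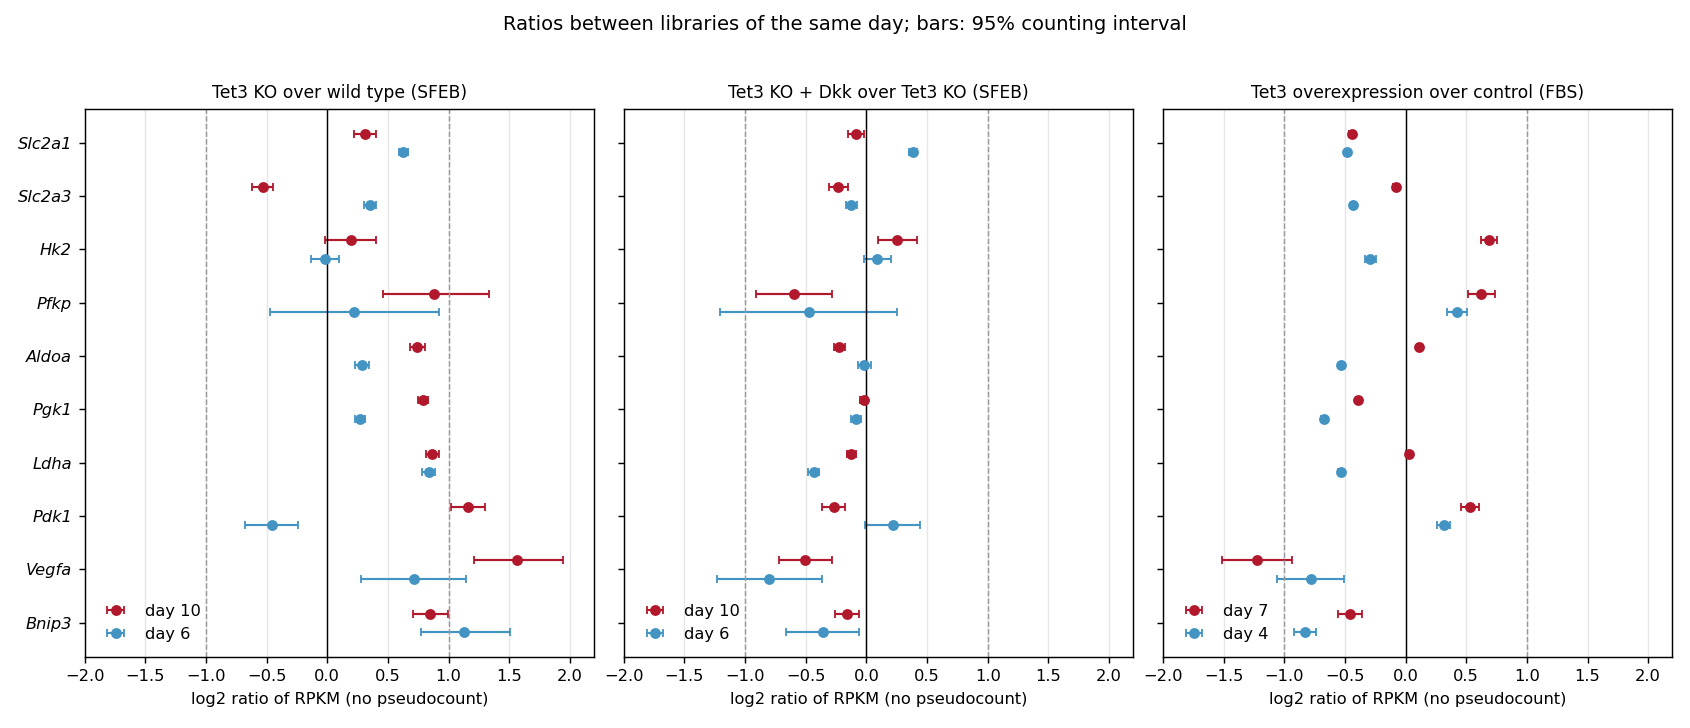
Log2 ratio without a pseudocount of each gene in 3 comparisons made within a day, 1 panel each, with 95% counting intervals as bars, at the later and the earlier day. For knockout over wild type most points lie above 0 on day 10, for Dkk-treated over untreated knockout they lie closer to 0, and for overexpression over control *Vegfa* lies lowest on day 7.

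Tet3 overexpression was compared with control cells in serum, which asks the reverse question in a culture that does not favour neural fates. *Vegfa* was at 6.45 RPKM in Tet3-overexpressing and 15.1 RPKM in control cells on day 7, and at 5.56 RPKM in Tet3-overexpressing and 9.55 RPKM in control cells on day 4. Both overexpression levels lay below both control levels, by 1.16 on the log2 scale on day 7 (counting interval -1.52 to -0.94) and by 0.73 on day 4 (-1.06 to -0.50). *Bnip3* was at 54.4 RPKM in Tet3-overexpressing and 74.6 RPKM in control cells on day 7, and at 46.8 RPKM in Tet3-overexpressing and 83.2 RPKM in control cells on day 4, again with no overlap. *Pdk1* was ordered the other way, at 33.4 RPKM in Tet3-overexpressing and 23.1 RPKM in control cells on day 7, and at 36.6 RPKM in Tet3-overexpressing and 29.4 RPKM in control cells on day 4. *Pfkp* was also higher with overexpression on both days, at 21.9 RPKM in Tet3-overexpressing and 14.2 RPKM in control cells on day 7, and at 27.6 RPKM in Tet3-overexpressing and 20.5 RPKM in control cells on day 4.

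The transporters and *Pgk1* were lower in overexpressing cells on both days. *Slc2a1* was at 317 RPKM in Tet3-overexpressing and 430.5 RPKM in control cells on day 7, and at 399 RPKM in Tet3-overexpressing and 557 RPKM in control cells on day 4. *Slc2a3* was at 504 RPKM in Tet3-overexpressing and 533 RPKM in control cells on day 7, and at 472 RPKM in Tet3-overexpressing and 639 RPKM in control cells on day 4. *Pgk1* was at 949 RPKM in Tet3-overexpressing and 1243 RPKM in control cells on day 7, and at 794 RPKM in Tet3-overexpressing and 1267 RPKM in control cells on day 4. For *Slc2a1*, *Slc2a3* and *Pgk1* the gaps were under 2-fold, and the overexpression levels did not reach the control level of the same day. *Aldoa*, *Ldha* and *Hk2* had lower levels with overexpression on day 4 only. *Aldoa* was at 1191 RPKM in Tet3-overexpressing and 1101 RPKM in control cells on day 7, and at 1152 RPKM in Tet3-overexpressing and 1665 RPKM in control cells on day 4. *Ldha* was at 1310 RPKM in Tet3-overexpressing and 1287 RPKM in control cells on day 7, and at 805 RPKM in Tet3-overexpressing and 1165 RPKM in control cells on day 4. *Hk2* was at 47.8 RPKM in Tet3-overexpressing and 29.7 RPKM in control cells on day 7, and at 52.2 RPKM in Tet3-overexpressing and 63.8 RPKM in control cells on day 4. These 3 genes therefore changed order between the days.

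Across the 10 genes on day 7, 1 was 2-fold lower (*Vegfa*, background 11.1%) and 0 were higher (6.96%). The median of the 10 was -0.03, the same as over all genes, and 5 of 10 lay below 0, where 51.9% of all genes did. On day 4, 0 were 2-fold lower (3.49%) and 0 higher (1.72%), and the median was -0.51 against -0.07 over all genes, with 8 of 10 below 0 where 58.7% of all genes were. Over both days limma called 0 of the 10 (background 0.0945%), with an unadjusted p under 0.05 for 4 of the 10 and 19.6% of all genes. The estimates were -0.95 for *Vegfa* (SE 0.28, limma adjusted p = 0.157) and -0.64 for *Bnip3* (SE 0.143, limma adjusted p = 0.107). Markers of other cell types differed on day 7 as well, some lower and some higher with overexpression. The 6 endothelial markers summed to 20.6 RPKM in Tet3-overexpressing cells, 4 of them at 1 RPKM, and to 119.8 RPKM in control cells, all 6 at 1 RPKM. The 6 primitive blood markers summed to 9.44 RPKM in Tet3-overexpressing cells, 3 of them at 1 RPKM, and to 7347 RPKM in control cells, all 6 at 1 RPKM. Pluripotency markers, 6 of 6 in both, summed to 1342 RPKM in Tet3-overexpressing and 311 RPKM in control cells on day 7. Their part in the differences was not tested.

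Several of the 10 genes are the hypoxia-responsive form within a small family of isoenzymes, and their share of the family can be read within a library, where no scaling between libraries enters. *Hk2* made up 30.0% of the summed hexokinase RPKM in Dkk-treated knockout, 24.5% in knockout and 34.7% in wild-type cells on day 10. On day 6 its share was 75.4% in Dkk-treated knockout, 75.5% in knockout and 76.9% in wild-type cells. The dominant hexokinase thus changed between the days in all 3 arms, since *Hk1*, the constitutive form, was at 23.5 RPKM in Dkk-treated knockout, 26.5 RPKM in knockout and 13.8 RPKM in wild-type cells on day 10, and at 8.30 to 9.65 RPKM on day 6. In the FBS culture *Hk2* held 77.2% in Tet3-overexpressing and 61.0% in control cells on day 7, and 78.7% in Tet3-overexpressing and 76.9% in control cells on day 4.

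The lactate dehydrogenases changed in a similar way. *Ldha* made up 58.7% of their summed RPKM in Dkk-treated knockout, 61.5% in knockout and 43.0% in wild-type cells on day 10, and 88.6% in Dkk-treated knockout, 88.6% in knockout and 81.2% in wild-type cells on day 6. Wild-type cells had the lowest *Ldha* share on both days, and on day 10 they were the only SFEB library in which *Ldhb*, the heart-type subunit, exceeded *Ldha*. The odds of *Ldha* against the other forms differed by 1.09 on the log2 scale between knockout and wild type on day 10 (counting interval 1.0 to 1.17) and by 0.84 on day 6 (0.70 to 0.98). *Ldhb* itself was at 271 RPKM in Dkk-treated knockout, 262 RPKM in knockout and 305 RPKM in wild-type cells on day 10, and at 50 to 68.1 RPKM on day 6. In serum the *Ldha* share was 80.7% in Tet3-overexpressing and 91.7% in control cells on day 7, and 75.1% in Tet3-overexpressing and 74.5% in control cells on day 4.

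Among the 4 pyruvate dehydrogenase kinases, *Pdk1* held 42.3% in Dkk-treated knockout, 43.6% in knockout and 34.02% in wild-type cells on day 10. On day 6 it held 18.5% in Dkk-treated knockout, 13.6% in knockout and 22.3% in wild-type cells. The order of genotypes was thus reversed between the days, and the odds differed by 0.58 between knockout and wild type on day 10 (counting interval 0.36 to 0.80) and by -0.87 on day 6 (-1.14 to -0.61). Tet3-overexpressing cells had a *Pdk1* share of 59.2% and control cells one of 47.7% on day 7, and the shares on day 4 were 64.2% in Tet3-overexpressing and 49.0% in control cells. *Pfkp* was a minor phosphofructokinase everywhere, with 0.804% to 3.70% of the family in SFEB and 7.93% to 12.7% in FBS libraries. *Aldoa* held 95.2% to 99.1% of the aldolases in all 10 libraries. Shares of close paralogs carry the uncertainty of reads that match more than 1 gene, which no source used here explains.

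**Figure D4:**
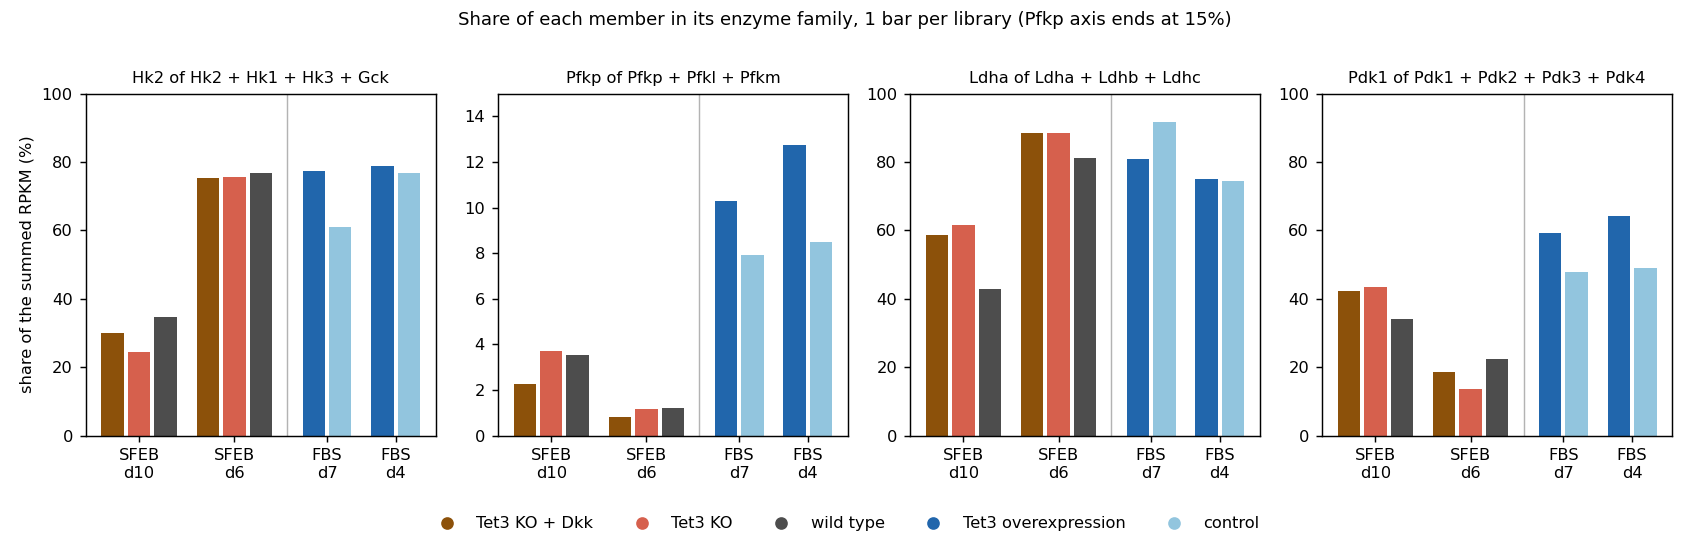
Share in percent that each gene held of the summed RPKM of its isoenzyme family, 1 panel per family and 1 bar per library, with a shorter axis for *Pfkp*. *Hk2* holds 24.5% to 34.7% of the hexokinases on SFEB day 10 and 75.4% to 76.9% on day 6, and the *Ldha* share is lowest in wild-type cells on day 10.

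The other genes of these pathways, on lists chosen with earlier results of these data known, were compared in the same way. Of 14 other glycolysis enzymes compared, 7 were at least 2-fold higher in knockout than in wild-type cells on day 10 and 0 lower, where 8.28% of all genes were higher and 1.96% lower. Their median ratio was 0.99, against 0.06 over all genes. The count was 4 when libraries were rescaled by their median ratio. On day 6, 2 were higher and 0 lower, where 4.89% of all genes were higher and 2.18% lower, with a median of 0.13. The aldolase *Aldoc*, expressed in brain, was at 17.0 RPKM in knockout and 4.91 RPKM in wild-type cells on day 10, and at 8.35 RPKM in knockout and 2.70 RPKM in wild-type cells on day 6. With Dkk it was at 3.91 RPKM on day 10 and 3.47 RPKM on day 6, below the untreated knockout on both days. *Gapdh*, the enzyme often used as a standard, had its knockout level below wild type, at 254 RPKM in knockout and 368 RPKM in wild-type cells on day 10 and at 365 RPKM in knockout and 604 RPKM in wild-type cells on day 6, and it is named here after its values were seen. Of 8 other transport genes 2 were 2-fold higher in knockout cells on each day. *Slc16a3*, which exports lactate, was at 18.5 RPKM in knockout and 4.40 RPKM in wild-type cells on day 10, and at 13.96 RPKM in knockout and 5.81 RPKM in wild-type cells on day 6.

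Of 34 other hypoxia-responsive genes compared, 10 were 2-fold higher in knockout than in wild-type cells on day 10 and 0 lower. Of all genes 8.28% were higher and 1.96% lower, and the median of the list was 0.51. On day 6, 1 of 34 was higher, where 4.89% of all genes were, with a median of 0.01. Of the HIF factors and oxygen sensors 1 of 11 was higher on day 10, where 8.28% of all genes were, with a median of -0.10, and 0 of 11 on day 6, with a median of -0.05. The one that passed, *Egln3*, stands on both lists. *Hif1a*, the oxygen-regulated subunit of HIF-1, was at 41.3 RPKM in Dkk-treated knockout, 48.6 RPKM in knockout and 72.9 RPKM in wild-type cells on day 10, and is named after its values were seen. Its protein is regulated mainly through its stability, which RNA does not show. Of 15 housekeeping genes 0 were 2-fold changed on either day, with medians of 0.09 on day 10 and 0.16 on day 6.

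Of 7 compared genes of the VEGF family and its receptors, 3 were 2-fold higher in knockout than in wild-type cells on day 10. On day 6, 4 were. The shares of all genes were 8.28% on day 10 and 4.89% on day 6. *Kdr*, the main receptor for VEGF-A, was at 3.34 RPKM in knockout and 0.47 RPKM in wild-type cells on day 10, and at 4.58 RPKM in knockout and 0.41 RPKM in wild-type cells on day 6. The ligand *Pgf* was at 2.91 RPKM in knockout and 0.50 RPKM in wild-type cells on day 10, and at 1.97 RPKM in knockout and 0.06 RPKM in wild-type cells on day 6. With Dkk *Pgf* was at 0.85 RPKM on day 10 and 0.42 RPKM on day 6, below the untreated knockout on both days. The co-receptor *Nrp2* was at 5.28 RPKM in Dkk-treated and 21.4 RPKM in untreated knockout cells on day 10, and at 3.20 RPKM in Dkk-treated and 12.0 RPKM in untreated knockout cells on day 6. In serum 6 of 8 were 2-fold lower in Tet3-overexpressing than in control cells on day 7 (median -2.33), where 11.1% of all genes were, and 2 of 8 on day 4, where 3.49% were. *Kdr* was there at 5.05 RPKM in Tet3-overexpressing and 36.3 RPKM in control cells on day 7, and at 0.22 RPKM in Tet3-overexpressing and 2.13 RPKM in control cells on day 4. Of the other hypoxia-responsive genes 2 of 36 were higher and 6 lower on day 7, where 6.96% of all genes were higher and 11.1% lower. On day 4, 1 of 36 was higher and 6 were lower, where 1.72% of all genes were higher and 3.49% lower. Among them *Angptl4*, a secreted regulator of lipoprotein lipase, was at 6.73 RPKM in Tet3-overexpressing and 2.0 RPKM in control cells on day 7, and at 11.25 RPKM in Tet3-overexpressing and 4.69 RPKM in control cells on day 4. *Vldlr*, a lipoprotein and reelin receptor, was at 3.92 RPKM in Tet3-overexpressing and 11.02 RPKM in control cells on day 7, and at 1.38 RPKM in Tet3-overexpressing and 3.35 RPKM in control cells on day 4.

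**Figure D5:**
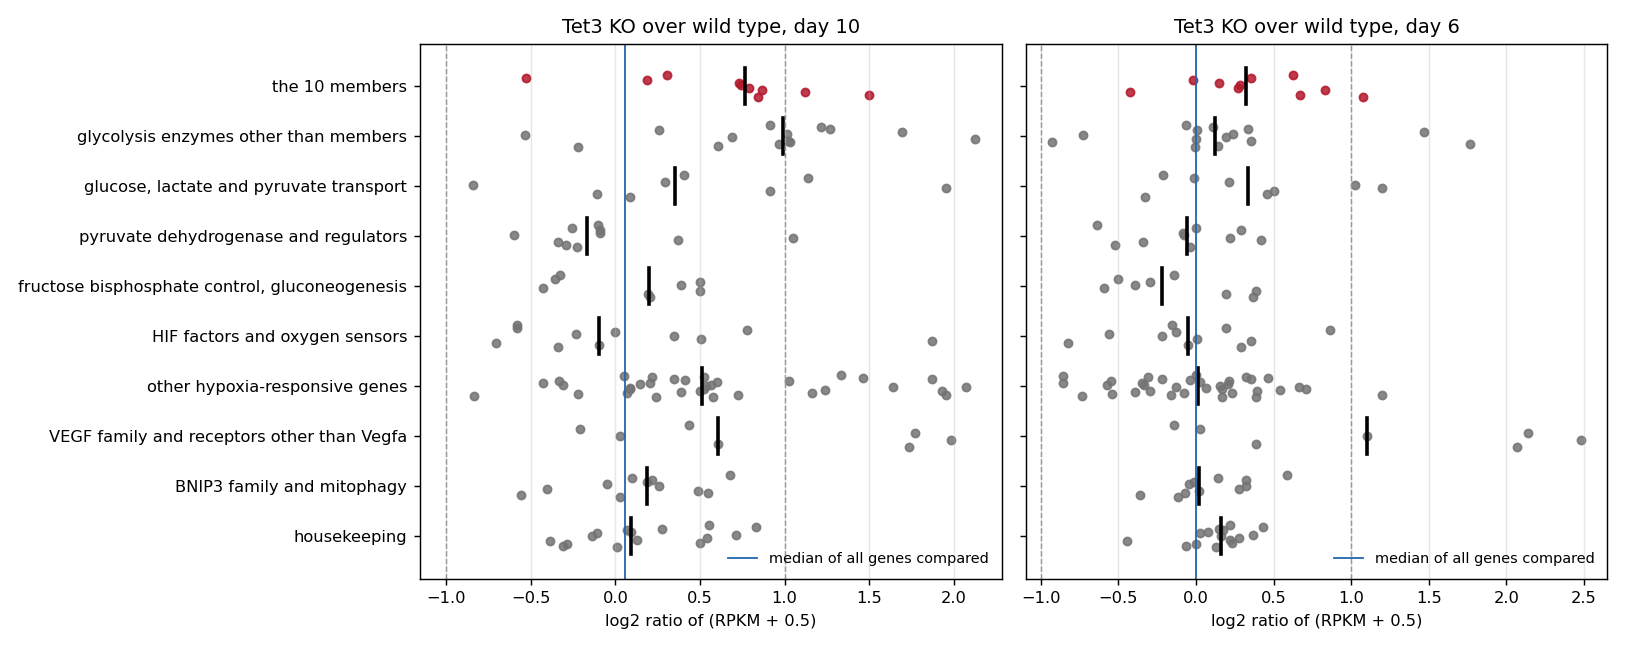
Log2 ratio of RPKM + 0.5 for Tet3 KO over wild-type cells on day 10 (left) and day 6 (right), 1 point per compared gene, with the 10 genes in red, the other lists in grey, a black bar at each list's median, a blue line at the median of all genes compared and dashed lines at a 2-fold ratio. The other glycolysis enzymes have a median of 0.99 on day 10 and 0.13 on day 6, and the 10 genes have one of 0.76 on day 10 and 0.32 on day 6.

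Across the 10 libraries the 10 genes were only partly alike. The 45 pairwise Pearson correlations of log2 levels had a median of 0.65 and ran from -0.45 to 0.96, with 7 below 0. Over the 6 SFEB libraries the median was 0.22 and 17 of 45 were below 0. The libraries share culture and day, so these values are a description. *Aldoa* (0.99), *Ldha* (0.97) and *Pgk1* (0.96) followed the mean profile of the 10 most closely, while *Vegfa* had a correlation near 0 with it (0.00046). Each of the 10 is part of that mean, which raises its own correlation, whereas genes outside the 10 are not. The genes outside the 10 with the most similar profile over the 10 libraries were *Tcirg1* (0.99), *Tnip1* (0.99), *Junb* (0.98), *Efcab4a* (0.98) and *Hexa* (0.98). *Hexa*, a lysosomal hexosaminidase subunit, was at 13.4 to 27.9 RPKM in SFEB and 66.3 to 84.2 RPKM in FBS libraries.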

How the data were processed

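The authors deposited 1 table of RPKM values for 21937 gene symbols, with 2 decimals and 1 column per library. The submitters' processing notes name HTSeq and the build mm9. No source used here gives the aligner, the annotation, the strand setting or the handling of multiply mapped reads, so genes with close copies are uncertain. RNA was total RNA sequenced on SOLiD instruments, per the labels' protocols. The members and lists were chosen with earlier results of these data known.

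Ratios were differences of log2(RPKM + 0.5) between 2 libraries, over genes that reached 1 RPKM somewhere in the culture (12912 in SFEB, 12387 in FBS). All 10 members passed this filter in both cultures. Reads were estimated from the steps of low RPKM values, with GENCODE vM21 used for transcript lengths only. At the chosen totals 59.6% to 72.6% of low values lay no more than 0.15 read from a whole number, compared with 24.9% to 27.7% at other totals. The totals were chosen by the nearness of these same values to whole numbers, so the excess is no independent check of them. These estimates give the 95% Clopper-Pearson intervals, which are those of the ratio without a pseudocount. The Dkk-treated knockout library of day 10 is the least certain, at 36900000 or 76200000 reads, and widths of its intervals depend on that choice.

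limma (version 3.58.1 in R 4.3.3, with a trend of variance on level) was fitted to log2(RPKM + 0.5) of 13757 genes in all 10 libraries, with 5 arm terms and 1 day term per culture. P-values were two-sided and adjusted by Benjamini-Hochberg over all genes tested, at a threshold of 0.05. The arm-by-day interaction serves as error, pooled over both cultures. P-values therefore set the size of a difference against how unevenly differences held, over the 2 days for arms and over the arms for days. The fit was tested on simulated data. Other pseudocounts, filters, scalings, fold limits and subsets of libraries were tried.

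All members are named in each comparison. From each list the genes at least 2-fold changed the same way on both days are named, up to 2 higher and 2 lower ranked by the smaller change, and the 5 genes most alike in profile. Other named genes were chosen after their values were seen. The 9 lists hold 141 genes, 4 of them matched through an older symbol. Some genes, among them *Slc16a3* and *Bnip3l*, stand on 2 lists. Promoter sequences are RefSeq's on GRCm38.p6. Figures were drawn with matplotlib 3.10.9.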

Additional observations from a re-analysis of the deposited data

Results flagged for a closer look

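Within SFEB culture 2 of the 10 genes had opposite signs on the 2 days in knockout over wild-type cells, with counting intervals that exclude 0 on both days. *Slc2a3* was at -0.53 on day 10 and 0.35 on day 6 on the log2 scale, and *Pdk1* at 1.12 on day 10 and -0.43 on day 6. In Dkk-treated over untreated knockout cells *Slc2a1* was at -0.085 on day 10 and 0.38 on day 6. In Tet3-overexpressing over control cells 3 genes changed sign between the days. *Hk2* was at 0.68 on day 7 and -0.29 on day 4, *Aldoa* at 0.11 on day 7 and -0.53 on day 4, and *Ldha* at 0.025 on day 7 and -0.53 on day 4. Each value rests on 1 library per condition and day, and the difference between the days was not tested.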

How the results depend on the processing

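Counts and medians over the 10 genes stayed close to their reported values in 298 recomputations and moved in 24, which follow. With a pseudocount of 1 RPKM, and with either rescaling of the libraries, 0 genes were 2-fold higher in Dkk-treated knockout than in wild-type cells on day 10, and with either rescaling 0 were so on day 6. With values rescaled to a common sum (TPM scaling) the medians were -0.29 for Dkk-treated over untreated knockout and 0.46 for Dkk-treated knockout over wild type on day 10, -0.57 for overexpression over control on day 4, and -0.34 for control on day 7 over day 4. That scaling moved the median of all genes for Dkk-treated knockout over wild type on day 10 to -0.09 in place of 0.04, and gave *Pfkp* an estimate of -0.052 for Dkk-treated knockout minus wild type in place of 0.03. Rescaling by the median ratio gave a median of -0.43 for overexpression over control on day 4. A filter of 5 RPKM removed *Pfkp* in SFEB, and the median for Dkk-treated knockout on day 10 over day 6 was then -0.015. At 1.5-fold in place of 2-fold, with the share of all genes past that limit in brackets, 7 genes were higher in knockout than in wild-type cells on day 10 (17.9%) and 4 on day 6 (9.63%). In Dkk-treated cells 1 was lower than in untreated knockout cells on day 6 (6.96%), 5 were higher (15.6%) and 1 lower (7.95%) than in wild-type cells on day 10, and 2 were higher than in wild-type cells on day 6 (5.73%). In overexpressing cells 2 were higher than in control cells on day 7 (16.3%) and 3 lower on day 4 (10.8%). Between days 2 were higher on day 10 in wild-type cells (28.9%), 1 was higher on day 7 in overexpressing cells (8.06%), and 1 was higher (20.4%) and 2 lower (18.2%) on day 7 in control cells.

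In limma fits on the SFEB libraries alone 2 of the 10 genes passed for knockout minus wild type (1.96% of all genes) and 8 for day 10 minus day 6 (54.2%), with *Aldoa* added (adjusted p = 0.0467). Of the day 10 calls 5 were left without the Dkk-treated knockout arm (29.5% of all genes) and 5 without the knockout arm (29.8%), and 7 passed without the wild-type arm (32.9%), where *Pgk1* had an estimate of 0.11 in place of -0.07. Over all genes, knockout minus wild type gave 29 calls, 253 on SFEB libraries alone, 58 with TPM scaling, 12 with a pseudocount of 0.1 RPKM, 14 with 1 RPKM, 12 with no variance trend, and 3 with no filter. Without the Dkk-treated knockout arm that contrast gave 3 calls. Dkk-treated minus untreated knockout gave 18 calls, 86 on SFEB libraries alone and 1 with no filter. Overexpression minus control gave 13 calls and 0 on the FBS libraries alone, where 1398 genes had an unadjusted p under 0.05, and FBS day 7 minus day 4 gave 62 calls and 0 there. The fit on the FBS libraries alone has 1 residual degree of freedom and that on the SFEB libraries alone 2, against 3 in the main fit. The cause of the differences in calls was not tested. No paired analysis was possible because each condition and day has 1 library and the labels give no replicate numbers. For the same reason no replicate could be left out.

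With 1 library per condition and day, differences within a day have no error from replicates. The p-values of the main fit come from 3 residual degrees of freedom, and fits on subsets of libraries have fewer. The depth limits *Pfkp* most, with an estimated 30 to 40 reads per library on SFEB day 6. Reads shared between close copies cannot be assigned.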

Other observations

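Of 34 compared hypoxia-responsive genes outside the 10, 10 were 2-fold higher on day 10 than on day 6 in Dkk-treated knockout cells (17.6% of all genes), 13 in knockout cells (21.1%) and 3 in wild-type cells (16.9%). Those lower on day 10 numbered 1 in Dkk-treated knockout (6.82%), 0 in knockout (8.01%) and 2 in wild-type cells (7.98%). Of 11 HIF factors and oxygen sensors, 4 were higher in Dkk-treated knockout, 4 in knockout and 1 in wild-type cells, against the same shares of all genes. *Egln3*, a prolyl hydroxylase that marks HIF subunits for breakdown, was at 5.99 RPKM in Dkk-treated knockout, 16.3 RPKM in knockout and 4.08 RPKM in wild-type cells on day 10, and at 1.05 RPKM in Dkk-treated knockout, 2.57 RPKM in knockout and 1.90 RPKM in wild-type cells on day 6. Differences between arms in these counts were not tested.

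*Mpc1*, listed under its older symbol *Brp44l*, encodes a subunit of the mitochondrial pyruvate carrier. It was at 29.0 RPKM in Dkk-treated knockout, 37.9 RPKM in knockout and 40.9 RPKM in wild-type cells on day 10, and at 4.86 RPKM in Dkk-treated knockout, 7.89 RPKM in knockout and 5.61 RPKM in wild-type cells on day 6. Of 10 pyruvate dehydrogenase genes and regulators 1 was 2-fold higher in knockout than in wild-type cells on day 10 (median -0.17), near the 8.28% of all genes. On day 6, 0 of 10 were (median -0.06), where 4.89% of all genes were. Of 8 genes of fructose bisphosphate control and gluconeogenesis 0 were 2-fold changed on either day, with medians of 0.20 on day 10 and -0.22 on day 6. In control cells in serum 6 of 8 genes of the VEGF family and its receptors were 2-fold higher on day 7 than on day 4, where 11.5% of all genes were, with a median of 2.62. *Egln3* and *Mpc1* were chosen after their values were seen.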
